A study of Homo sapiens with 20 samples.

Results

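The KO2 clone is a line of H1 human embryonic stem cells, an established line, that is labelled as a knockout of DIGIT, and 4 of the 12 RNA-seq libraries of the series come from it. They were chosen by their labels alone, 2 libraries at day 4 and 2 at day 0. DIGIT is a long noncoding RNA gene that lies beside the homeobox gene GSC and is transcribed away from it. At day 4, KO2 cells had been cultured in RPMI with B27 supplement and 50 ng/ml Activin A, and at day 0 they were kept in mTeSR1, a medium for undifferentiated stem cells. The same days, with the same media, were sampled in unedited H1 cells (WT) and in KO1, a second clone labelled as a DIGIT knockout, with 2 libraries in each group. KO2 is 1 clone, so its values cannot tell an effect of the knockout from a property of that clone, and nothing in the labels says that the replicates were separate cultures. The p-values then measure the spread between these libraries. The level of DIGIT itself was not analysed here, so the knockout is taken from the label. The study asked how loss of DIGIT bears on differentiation towards endoderm, and the 4 KO2 libraries show which genes still changed in this clone, and how far.

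Activin A binds the receptors that also serve Nodal, and both act through SMAD2 and SMAD3 with the DNA-binding partner FOXH1. In the embryo this signal, together with WNT and FGF ligands, sets up the primitive streak, whose anterior cells express EOMES, MIXL1 and GSC and go on to form definitive endoderm. Definitive endoderm is marked by SOX17, FOXA2, GATA4, GATA6, HHEX and the chemokine receptor CXCR4. The same pathway at a lower level helps to keep human embryonic stem cells undifferentiated, together with POU5F1, SOX2 and NANOG.

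Total counts in the KO2 libraries were 12839236 and 15380017 at day 4, and 10477246 and 9942016 at day 0. The last, KO2 day 0 replicate 2, was the lowest of the 12 libraries, and KO1 day 0 replicate 2 was the highest, with 21394547. Values are given as CPM, counts scaled to a common library size, and fold changes as log2 ± standard error, tested with edgeR over 16792 features. A size given alone after "rose by" or "fell by" is on the log2 scale, and a difference is the log2 response of KO2 minus that of WT or KO1. The KO1 day 0 pair stood apart, with a chi-square per feature of 22.1 between its libraries, against 1.91 to 3.94 in the other pairs. That pair enters the common estimate of spread. On the first principal component, which held 71.9% of the variance and followed the day, KO2 day 4 libraries lay at 43.0 and 42.3, KO1 day 4 libraries at 74.1 and 68.7, and WT day 4 libraries at 66.9 and 59.6. All 6 day 0 libraries lay between −63.6 and −56.0. The second component held 8.98% and set KO2 day 4, at 41.5 and 44.9, apart from WT day 4, at −25.8 and −22.3. In bulk RNA, fewer cells that express a gene and less RNA per cell cannot be told apart.

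The state of the KO2 cultures was checked with short sets of defining markers. The summed level of 6 markers of undifferentiated cells was 3301 and 3339 CPM at day 4 and 3787 and 3839 CPM at day 0 in KO2, against 2801 and 2808 CPM at day 4 in WT. Primitive streak markers, 5 genes, summed to 635 and 648 CPM at day 4 and 5.90 and 5.58 CPM at day 0 in KO2, against 958 and 757 CPM at day 4 in WT. Definitive endoderm markers, 7 genes, summed to 1052 and 831 CPM at day 4 and 13.0 and 6.56 CPM at day 0 in KO2, against 4876 and 4478 CPM at day 4 in WT, and CER1 makes up most of that sum. All markers of these 3 sets were at or above 1 CPM in KO2 at day 4. Of the markers of other lineages, 4 of 6 mesoderm markers, 3 of 6 neuroectoderm markers, 4 of 5 trophectoderm and amnion markers and 2 of 4 blood and endothelium markers were under 1 CPM in KO2 at day 4. The sum of the mesoderm set, 136 and 122 CPM at day 4 against 252 and 266 CPM at day 0, is mostly the receptor gene KDR, and that of the neuroectoderm set, 985 and 1012 CPM at day 4 against 351 and 344 CPM at day 0, is mostly NES. The defining genes PAX6, RAX, MESP1, CDX2, PECAM1 and HBE1 had 6, 5, 2, 7, 1 and 0 counts over both KO2 day 4 libraries.

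KO2 cells changed widely between the days. Of 16792 features tested, 4192 were higher at day 4 (25.0%) and 4314 were lower (25.7%), at an adjusted p under 0.05. Changes of at least 1 on the log2 scale were more often losses, with 853 features higher (5.08%) and 1895 lower (11.3%). In WT, 1296 features (7.72%) were higher and 1784 (10.6%) lower by at least 1. The median log2 fold change over all features was −0.0027 in KO2 and −0.0038 in WT. At any size, 4886 features were higher (29.1%) and 4923 lower (29.3%) in KO1, and 4075 higher (24.3%) and 4257 lower (25.4%) in WT. The day response of KO2 differed from that of WT for 2329 features (13.9%), 1070 higher in KO2 (6.37%) and 1259 lower (7.50%). It differed from that of KO1 for 1754 features (10.4%), 659 higher in KO2 (3.92%) and 1095 lower (6.52%). Of the calls against KO1, 37.6% were higher in KO2, and with total counts in place of TMM factors 49.4% were.

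The numbers of called differences depended on single libraries, while those of the change within KO2 stayed within 1.5 times. Without replicate 1 of KO1 day 0, which enters the comparison with WT through the common spread alone, the differences from WT came to 2110 higher and 2110 lower, and without replicate 2 to 2117 higher and 2128 lower. They came to 495 and 800 without WT day 0 replicate 2, to 447 and 820 without WT day 4 replicate 1, to 466 and 807 without KO2 day 0 replicate 1, to 496 and 808 without KO2 day 0 replicate 2, and to 473 and 737 without KO2 day 4 replicate 2. The higher calls came to 669 without WT day 4 replicate 2 and to 570 without KO2 day 4 replicate 1. Against KO1, the counts were 1694 higher and 2036 lower without KO1 day 0 replicate 1, and 1414 and 1808 without replicate 2. They were 268 and 625 without KO1 day 4 replicate 1, 328 and 673 without KO2 day 0 replicate 1, 328 and 660 without KO2 day 0 replicate 2, and 313 and 648 without KO2 day 4 replicate 2. The higher calls were 414 without KO1 day 4 replicate 2 and 373 without KO2 day 4 replicate 1.

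Genes of the primitive streak were strongly induced in KO2. EOMES, a T-box factor needed to form endoderm in mouse, had 192 and 173 CPM at day 4, against 1.22 and 0.979 CPM at day 0. The day 4 libraries were far above the day 0 libraries, with no overlap (log2 fold change 7.36 ± 0.23, adjusted p = 7.6e-12). NODAL, the ligand of the pathway that Activin stimulates, had 382 and 416 CPM at day 4, against 3.47 and 2.94 CPM at day 0. Again all day 4 values lay above all day 0 values (log2 fold change 6.96 ± 0.17, adjusted p = 4.88e-13). T, the T-box factor also called brachyury, had 19.7 and 24.3 CPM at day 4, against 0.281 and 0.784 CPM at day 0, without overlap (log2 fold change 5.36 ± 0.27, adjusted p = 1.04e-09). MIXL1, a homeobox factor of the streak, had 32.1 and 26.5 CPM at day 4, against 0.187 and 0.294 CPM at day 0, with no overlap (log2 fold change 6.88 ± 0.31, adjusted p = 2.22e-10). SOX2 went the other way, with 166 and 168 CPM at day 4, against 213 and 234 CPM at day 0. Both day 4 libraries were below both day 0 libraries, by a small amount (log2 fold change −0.42 ± 0.14, adjusted p = 0.0221). SOX2 lies within the noncoding gene SOX2-OT, and how strand was used in counting is not given in the sources used here. The call was lost without KO2 day 0 replicate 2 (−0.35, adjusted p = 0.143), KO2 day 4 replicate 1 (−0.40, adjusted p = 0.0981) or KO2 day 4 replicate 2 (−0.43, adjusted p = 0.0827).

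**Figure D1:**
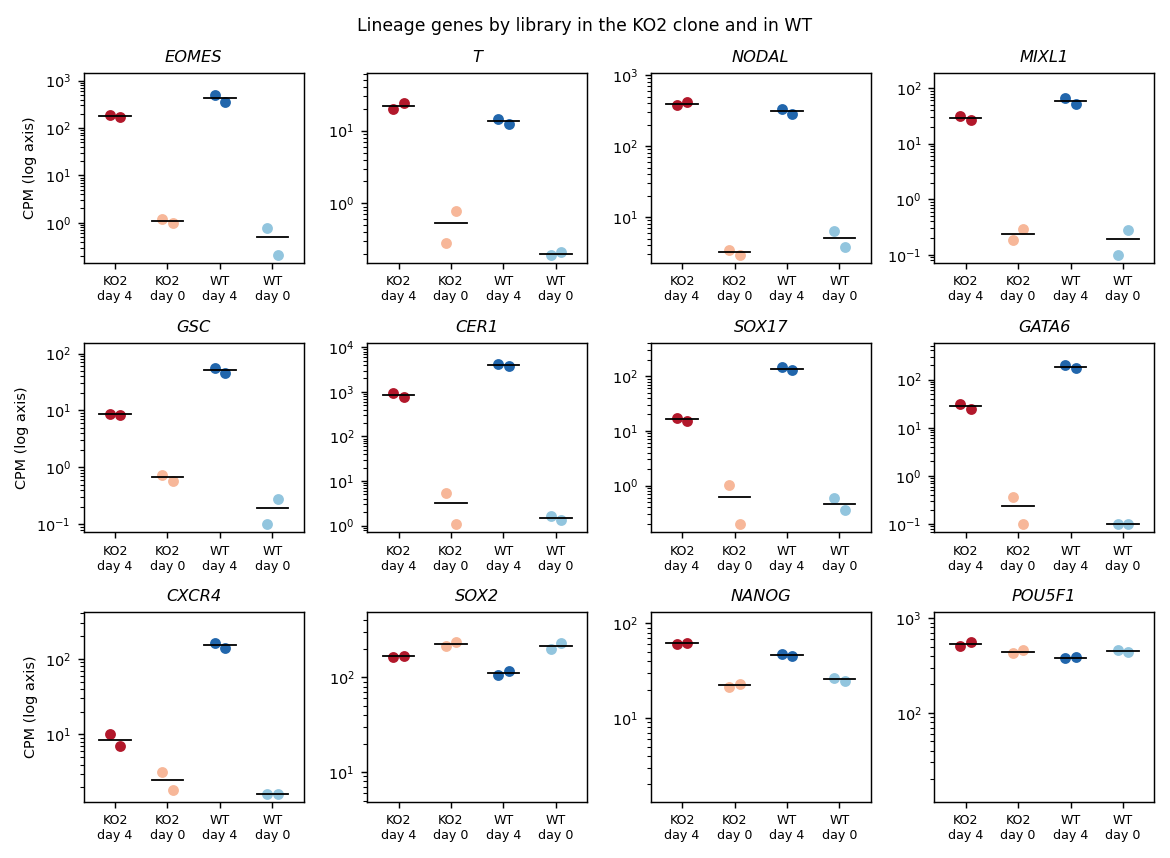
CPM (log axis) of 12 lineage genes in each library of KO2 day 4, KO2 day 0, WT day 4 and WT day 0, from left to right in each panel; points are libraries, horizontal lines are means of 2 libraries, and values below 0.1 CPM are drawn at 0.1. The KO2 day 4 points of NODAL and T lie above those of WT day 4, while those of SOX17, GATA6, GSC and CXCR4 lie well below them.

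Of the 26 genes on a list for primitive streak and mesendoderm, 24 were tested, and 20 rose and 1 fell in KO2, against 25.0% and 25.7% of all features. The median log2 fold change of the 24 was 4.995 in KO2 and 6.28 in WT, against −0.0027 and −0.0038 over all features. The other streak ligands rose with NODAL. WNT3, a WNT ligand needed for streak formation in mouse, had 28.9 and 27.3 CPM at day 4, against 1.03 and 0.588 CPM at day 0, and WNT3A rose by 4.14. FGF8 rose by 5.69 and FGF4 by 3.22. The WNT target SP5 rose by 4.90. The homeobox gene EVX1 had 15 counts over both day 4 libraries and 0 at day 0. Its fitted rise of 5.96 therefore depends on the prior count and is no bound. TBX6, a factor of paraxial mesoderm, was the member that fell, with 0.802 and 0.736 CPM at day 4, against 3.47 and 3.04 CPM at day 0 and no overlap (log2 fold change −2.07 ± 0.37, adjusted p = 0.000311). FOXH1, MESP2 and APLNR did not pass the test, with log2 fold changes of 0.19, −0.78 and 0.74.

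The response of streak genes in KO2 differed from WT for 10 of the 24, 2 higher and 8 lower, against 6.37% higher and 7.50% lower over all features. Members of the list were chosen with earlier results of these data known, and 22 of the 24 rose in WT. NODAL rose by 6.96 in KO2, 7.02 in KO1 and 5.96 in WT, and KO2 and KO1 did not differ by the test. It was 1 of the 2 that responded more in KO2 than in WT, where it had 332 and 285 CPM at day 4. The difference from WT (1.00 ± 0.27, adjusted p = 0.022) also takes in the day 0 levels. That call was lost without replicate 1 of WT day 0 (0.61, adjusted p = 0.156), replicate 2 of WT day 4 (0.88, adjusted p = 0.0569), KO2 day 0 replicate 1 (1.11, adjusted p = 0.0652), KO2 day 0 replicate 2 (0.87, adjusted p = 0.127) or KO2 day 4 replicate 2 (0.94, adjusted p = 0.0641). The other was GDF3, a TGF-beta family ligand that acts with Nodal, which rose by 2.86 in KO2 and 2.93 in KO1 without a called difference between them. GDF3 had 76.7 and 69.2 CPM at day 4, against 9.74 and 10.4 CPM at day 0 in KO2 (difference from WT 0.51 ± 0.16, adjusted p = 0.0442). When 1 library at a time was left out, its call was lost without either KO2 day 4 library, either KO2 day 0 library, either KO1 day 4 library, either WT day 4 library or replicate 2 of WT day 0 (0.37 to 0.59, adjusted p 0.064 to 0.25). It was also lost with total counts (0.47, adjusted p = 0.0721), no filter on low counts (0.52, adjusted p = 0.067), at least 1 CPM in 2 libraries (0.50, adjusted p = 0.0502) and DESeq2 (0.51, adjusted p = 0.0938). The differences of T and MIXL1 from WT did not pass the threshold (difference −0.61 ± 0.69, adjusted p = 0.629, and difference −1.25 ± 0.94, adjusted p = 0.417), although T averaged above WT at day 4 and MIXL1 below it. EOMES responded less in KO2 (difference −2.49 ± 0.64, adjusted p = 0.0173), with 488 and 361 CPM at day 4 in WT. It rose by 7.36 in KO2 and by 9.85 in WT. The difference also takes in low day 0 levels, with 23 counts over both KO2 libraries, so it does not measure the gap at day 4 alone. Without WT day 0 replicate 2 (−1.73, adjusted p = 0.137), KO2 day 0 replicate 1 (−2.33, adjusted p = 0.114) or KO2 day 0 replicate 2 (−2.64, adjusted p = 0.0535) the difference for EOMES was not called.

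GSC, LHX1, CER1 and OTX2 each responded less in KO2 than in WT. GSC, the neighbour of DIGIT, had 8.83 and 8.23 CPM at day 4, against 0.749 and 0.588 CPM at day 0 in KO2, with no overlap (log2 fold change 3.65 ± 0.41, adjusted p = 4.19e-06). In WT it had 56.4 and 45.6 CPM at day 4 and 0.0968 and 0.283 CPM at day 0 (difference −4.25 ± 0.94, adjusted p = 0.00749), and the difference was not called without KO2 day 0 replicate 1 (−4.08, adjusted p = 0.0777). LHX1, a LIM homeobox factor of the anterior streak, had 18.0 and 13.5 CPM at day 4, against 1.69 and 1.47 CPM at day 0 in KO2, and 123 and 102 CPM at day 4 in WT (difference −3.04 ± 0.46, adjusted p = 0.000505). CER1, a secreted inhibitor of Nodal, BMP and WNT ligands, rose in KO2 to 967 and 765 CPM, against 5.43 and 1.08 CPM at day 0 (log2 fold change 8.03 ± 0.27, adjusted p = 1.23e-11). Its response was smaller than in WT (difference −3.38 ± 0.53, adjusted p = 0.000704), where it reached 4188 and 3875 CPM, and the call was lost without KO2 day 0 replicate 1 (−1.78, adjusted p = 0.0566), the library with the higher day 0 value. OTX2, a homeobox factor of anterior endoderm and brain, rose by 0.44 in KO2 and by 2.50 in WT (difference −2.06 ± 0.14, adjusted p = 6.24e-07).

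The promoters of 4 genes are shown because their genes contrast in this clone: NODAL and MIXL1 rose in KO2 without a called deficit against WT, while GATA6 rose less than in WT and CCKBR did not rise. Each run is the 250 bases before the annotated start, 5′ to 3′ on the gene's strand, from RefSeq on GRCh38.p14, with capitals where a motif searched on both strands matched. These were the SMAD box CAGAC, the FOXH1 site TGTNNATT, the T-box half-site AGGTGTGA, the GATA site AGATAA and the FOXA site TGTTTAC, none of which overlapped another here. Of 27305 promoter stretches of this length, 37.8% held CAGAC, 9.90% TGTNNATT, 0.787% AGGTGTGA, 9.37% AGATAA and 2.98% TGTTTAC. A match describes letters only, and the counts themselves were made on hg19.
NODAL (chr10:70441682-70441931, minus strand): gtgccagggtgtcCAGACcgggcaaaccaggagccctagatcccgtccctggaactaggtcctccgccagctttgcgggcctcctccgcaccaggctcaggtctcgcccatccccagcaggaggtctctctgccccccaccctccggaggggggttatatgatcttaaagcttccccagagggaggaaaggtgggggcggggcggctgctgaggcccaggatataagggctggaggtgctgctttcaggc
MIXL1 (chr1:226223414-226223663, plus strand): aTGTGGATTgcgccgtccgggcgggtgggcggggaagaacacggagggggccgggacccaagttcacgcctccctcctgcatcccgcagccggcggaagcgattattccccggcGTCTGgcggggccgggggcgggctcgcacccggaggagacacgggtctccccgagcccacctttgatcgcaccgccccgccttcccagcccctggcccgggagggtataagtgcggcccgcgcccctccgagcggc
GATA6 (chr18:22169339-22169588, plus strand): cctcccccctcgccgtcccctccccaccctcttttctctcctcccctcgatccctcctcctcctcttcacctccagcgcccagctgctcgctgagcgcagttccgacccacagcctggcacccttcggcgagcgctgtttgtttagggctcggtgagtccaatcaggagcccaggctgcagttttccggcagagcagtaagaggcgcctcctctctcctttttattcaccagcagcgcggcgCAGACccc
CCKBR (chr11:6259588-6259837, plus strand): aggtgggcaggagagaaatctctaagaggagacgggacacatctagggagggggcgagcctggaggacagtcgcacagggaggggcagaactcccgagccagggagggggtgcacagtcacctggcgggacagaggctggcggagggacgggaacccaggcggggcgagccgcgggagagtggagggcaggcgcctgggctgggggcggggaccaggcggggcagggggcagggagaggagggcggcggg
NODAL and GATA6 each held 1 SMAD box, MIXL1 held 1 SMAD box and 1 FOXH1 site, and CCKBR held none of the 5 motifs.

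Inside the Nodal and Activin pathway, 18 of 30 tested genes (of 33 listed) rose in KO2 and 1 fell, against 25.0% and 25.7% of all features. The median log2 fold change was 0.49 in KO2 and 0.53 in WT. The inhibitors that the pathway itself induces rose. LEFTY1 and LEFTY2, secreted inhibitors of Nodal, had 134 and 128 CPM at day 4, against 1.03 and 1.37 CPM at day 0, and 116 and 113 CPM at day 4, against 1.69 and 1.86 CPM at day 0. Neither overlapped between the days, and neither difference from WT passed the threshold (difference −0.56 ± 0.69, adjusted p = 0.643, and difference −0.83 ± 0.56, adjusted p = 0.359). They are close paralogs, so their split of reads is uncertain. The inhibitory SMAD7 rose by 1.94, PMEPA1 by 2.56, the activin-binding FST by 2.95 and BAMBI by 1.70. The effectors SMAD2 and SMAD4 did not pass the test (0.09 and 0.02), SMAD3 rose by 0.64, and the co-receptor gene TDGF1 did not pass it (−0.04). Differences from WT were called for 6 of the 30, against 13.9% of all features. Beside NODAL and GDF3, SKIL, a repressor of SMAD activity, responded more in KO2 (difference 0.68 ± 0.19, adjusted p = 0.0265). The SKIL call was lost without either KO2 day 4 library, either KO2 day 0 library, either WT day 4 library or either WT day 0 library (0.61 to 0.73, adjusted p 0.0527 to 0.127). Beside CER1, the type I receptor gene ACVR1B and the convertase gene FURIN responded less (difference −0.53 ± 0.14, adjusted p = 0.0198, and difference −0.62 ± 0.14, adjusted p = 0.00794). The ACVR1B call was lost without replicate 2 of KO2 day 4, replicate 1 of KO2 day 0, replicate 1 of WT day 4 or replicate 2 of WT day 0 (−0.54 to −0.43, adjusted p 0.0673 to 0.119). The rise of ACVR1B within KO2 was not called without KO2 day 0 replicate 2 (0.22, adjusted p = 0.165) or KO2 day 4 replicate 1 (0.29, adjusted p = 0.0845).

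Definitive endoderm genes rose less in KO2 than in WT. Of 32 listed, 31 were tested, of which 17 rose, 4 fell and 10 did not pass the test in KO2. In WT, 27 rose and 1 fell. Over all features, 25.0% rose and 25.7% fell in KO2, and 24.3% rose and 25.4% fell in WT. The median log2 fold change of the 31 was 0.70 in KO2, 2.17 in KO1 and 4.22 in WT. Of the 31, 26 responded less in KO2 than in WT, against 7.50% of all features. Among the 1296 features that rose by at least 1 in WT, 435 responded less in KO2. Members of the list were chosen with earlier results of these data known, so their count is a description and not a test. SOX17, an HMG-box factor that defines the lineage, had 17.6 and 15.4 CPM at day 4, against 1.03 and 0.196 CPM at day 0 in KO2, with no overlap (log2 fold change 4.70 ± 0.29, adjusted p = 8.33e-09). It reached 147 and 129 CPM at day 4 in WT (difference −3.53 ± 0.68, adjusted p = 0.00314). GATA6 had 31.1 and 24.2 CPM at day 4, against 0.375 and 0.0979 CPM at day 0 in KO2 (log2 fold change 6.80 ± 0.30, adjusted p = 2.04e-10), and 198 and 174 CPM at day 4 in WT (difference −5.07 ± 1.24, adjusted p = 0.0129). Both differences lost their call without KO2 day 0 replicate 1, which held more of these transcripts than replicate 2 (−1.92, adjusted p = 0.402 for SOX17, and −3.87, adjusted p = 0.306 for GATA6). GATA6 had 1 count over both WT day 0 libraries.

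Other endoderm factors followed the same order, with KO2 day 4 above KO2 day 0 and below WT day 4. FOXA2, a forkhead factor, had 12.8 and 8.63 CPM at day 4, against 2.15 and 2.25 CPM at day 0 in KO2 and 63.4 and 57.7 CPM at day 4 in WT (difference −2.77 ± 0.36, adjusted p = 0.000174). GATA4 had 6.10 and 5.29 CPM at day 4, against 0.187 and 0.196 CPM at day 0 in KO2 and 72.5 and 63.6 CPM at day 4 in WT (difference −3.24 ± 0.86, adjusted p = 0.0266). HHEX, a homeobox factor of anterior endoderm, had 6.58 and 5.69 CPM at day 4, against 0.656 and 0.881 CPM at day 0 in KO2 and 43.0 and 38.8 CPM at day 4 in WT (difference −2.97 ± 0.74, adjusted p = 0.0149). The calls for GATA4 and HHEX were lost without KO2 day 0 replicate 1 (−3.28, adjusted p = 0.157, and −3.18, adjusted p = 0.0602) and without WT day 0 replicate 2 (−3.02, adjusted p = 0.0848, and −3.15, adjusted p = 0.0544) or KO2 day 0 replicate 2 (−3.22, adjusted p = 0.164, and −2.76, adjusted p = 0.129). That for GATA4 was also lost without KO2 day 4 replicate 2 (−3.13, adjusted p = 0.0523), while that for FOXA2 was not lost in any. CXCR4, the receptor used to sort endoderm, had 10.0 and 7.09 CPM at day 4, against 3.18 and 1.86 CPM at day 0 in KO2, and 164 and 139 CPM at day 4 in WT. Its day 4 libraries were above both day 0 libraries (log2 fold change 1.74 ± 0.25, adjusted p = 3.5e-05), and the difference from WT was called (difference −4.79 ± 0.39, adjusted p = 3.32e-06) in every alternative fit.

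Several genes that rose in WT did not pass the test in KO2. CCKBR, a receptor for gastrin and cholecystokinin, had 8.67 and 7.36 CPM at day 4, against 11.1 and 11.9 CPM at day 0, not past the threshold (log2 fold change −0.53 ± 0.24, adjusted p = 0.0818), and 157 and 132 CPM at day 4 in WT (difference −4.52 ± 0.32, adjusted p = 6.24e-07). VWF had 2.33 and 1.27 CPM at day 4, against 1.50 and 2.06 CPM at day 0, with overlap between the days (log2 fold change −0.01 ± 0.38, adjusted p = 0.984), and 66.7 and 59.0 CPM at day 4 in WT (difference −4.95 ± 0.49, adjusted p = 1.32e-05). ARHGAP24, which encodes a RhoGAP, had 0.802 and 0.468 CPM at day 4, against 0.656 and 0.294 CPM at day 0 in KO2 and 13.7 and 11.3 CPM at day 4 in WT (difference −4.84 ± 0.73, adjusted p = 0.000507). The 4 list members that fell in KO2 were FRZB, a secreted WNT antagonist (−1.82), SHISA2 (−1.65), ELF3 (−1.29) and RIPK4 (−0.56), and WT values were 1.28, 0.08, −0.61 and 0.27. The keratin genes KRT8 and KRT18 rose by 0.32 and 0.33 in KO2 and by 1.88 and 1.00 in WT. Single libraries carried the calls within KO2 for RIPK4, lost without KO2 day 4 replicate 1 (−0.44, adjusted p = 0.0624), and for KRT18, lost without KO2 day 0 replicate 2 (0.31, adjusted p = 0.0703) or KO2 day 4 replicate 1 (0.29, adjusted p = 0.0724). EPCAM, an epithelial adhesion gene, was the 1 member that responded more in KO2, with 328 and 322 CPM at day 4, against 166 and 156 CPM at day 0 (difference 0.52 ± 0.10, adjusted p = 0.00391). PRDM1, a repressor shared with germ cells, had 11.7 and 7.43 CPM at day 4, against 0.187 and 0 CPM at day 0, a ratio of 98.0 (day 4 over day 0, exact 95% counting interval 26.8 to 813) in KO2, and 94.4 and 80.9 CPM at day 4 and 1.26 and 1.06 CPM at day 0 in WT. Of 21 later endoderm and hepatic genes, 10 were tested, and 2 rose (ALB by 2.74 and AFP by 1.48) and 3 fell, against 25.0% and 25.7% of all features. Those that fell were APOE, APOB and APOC1, with log2 fold changes of −1.09, −0.84 and −0.44. The rise of AFP was not called without KO2 day 0 replicate 1 (1.47, adjusted p = 0.0769), KO2 day 0 replicate 2 (1.49, adjusted p = 0.0721) or KO2 day 4 replicate 1 (1.44, adjusted p = 0.0518), nor by DESeq2 (1.48, adjusted p = 0.0697). The fall of APOB was not called without KO2 day 0 replicate 1 (−0.81, adjusted p = 0.115), without KO2 day 0 replicate 2 (−0.86, adjusted p = 0.088) or without KO2 day 4 replicate 2 (−0.66, adjusted p = 0.181). That of APOC1 was not called without KO2 day 0 replicate 2 (−0.37, adjusted p = 0.0559).

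**Figure D2:**
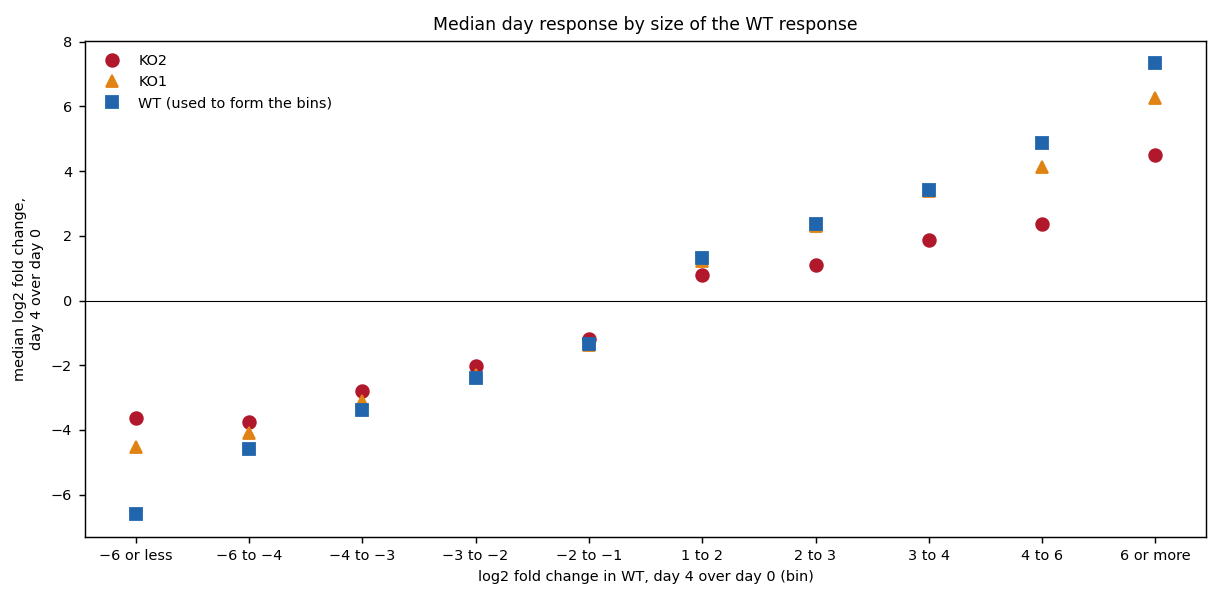
Median log2 fold change, day 4 over day 0, in KO2, KO1 and WT for features grouped by the size of their WT response (x axis, log2), among features called in WT. Features that rose in WT by 2 to 3 had a median of 1.10 in KO2, 2.31 in KO1 and 2.38 in WT, and those that fell by 2 to 3 had −2.03, −2.31 and −2.38.

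The shared part of the day response was set out from each line in turn. Of 1296 features that rose by at least 1 in WT, 580 rose by at least 1 in KO2 (44.8%), 229 rose by less, 456 did not pass the test and 31 fell. Of 1784 that fell by at least 1 in WT, 1214 fell by at least 1 in KO2 (68%), 295 fell by less, 274 did not pass it and 1 rose. The median ratio of the KO2 to the WT response was 0.546 on the rising side and 0.843 on the falling side. Choosing features by WT values inflates the WT response, and KO1, measured on the same features, gave ratios of 0.899 and 0.978. On features chosen by KO2 in the same way, the median ratio of KO2 to WT was 1.04 on the rising and 1.14 on the falling side. Among the 1296 rising features, 435 responded less in KO2 than in WT by the test of the difference and 31 more. Among the 1784 falling features, 212 fell less in KO2 and 42 fell more.

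Seen from KO2, most of its gains were shared. Of the 853 features that rose by at least 1 in KO2, 580 rose by at least 1 in WT, 126 by less, 147 did not pass the test in WT and 0 fell. Among the genes with the largest rise and at least 5 CPM were CER1, EOMES, NODAL, MIXL1, GATA6, LEFTY1, LEFTY2 and PRDM1, described above, with FGF17, DKK4, DKK1, EBF2, NPPB and CSH2. FGF17, a ligand of the FGF8 group, had 54.8 and 42.0 CPM at day 4, against 0.656 and 0.0979 CPM at day 0 in KO2, and 520.1 and 449 CPM at day 4 in WT (difference −3.74 ± 0.94, adjusted p = 0.0156). That difference was not called without replicate 1 of KO2 day 0 or replicate 2 of WT day 0 (−3.33 to −1.87, adjusted p 0.0717 to 0.62). EBF2, an early B-cell factor family member, had 12.4 and 13.4 CPM at day 4, against 0 and 0.0979 CPM at day 0, a ratio of 271 (day 4 over day 0, exact 95% counting interval 48.2 to 10720), and 3.74 and 3.48 CPM at day 4 in WT. NPPB, which encodes a natriuretic peptide, had 6.66 and 9.70 CPM at day 4, against 0.0937 and 0 CPM at day 0, a ratio of 174 (day 4 over day 0, exact 95% counting interval 30.9 to 6894).

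CSH2, a placental lactogen gene, had 4.49 and 5.96 CPM at day 4 and no count at day 0 in KO2, at least 36.8-fold higher against a floor of 3 counts over the day 0 group. In WT it had 0.153 and 0.387 CPM at day 4. Its neighbours CSH1 (3.05 and 3.88 CPM), CSHL1 (2.97 and 4.22 CPM), GH1 (2.49 and 3.61 CPM) and GH2 (1.52 and 2.07 CPM) also had reads in KO2 at day 4. These genes are near-identical copies, so the member that gave the reads is uncertain. The fitted difference of CSH2 from WT depends on the prior count and is no bound (difference 7.53 ± 2.31, adjusted p = 0.0437). It was not called without either KO2 day 4 library, either KO2 day 0 library, either KO1 day 4 library, replicate 1 of WT day 4 or replicate 2 of WT day 0 (4.18 to 7.71, adjusted p 0.0592 to 1).

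Many pluripotency genes responded more, or fell less, in KO2 than in WT. All 32 listed genes were tested, and 10 rose, 13 fell and 9 did not pass the test in KO2, while 6 rose and 23 fell in WT. Over all features, 25.0% rose and 25.7% fell in KO2, and 24.3% rose and 25.4% fell in WT. The median log2 fold change of the 32 was −0.20 in KO2 and −0.61 in WT. Of the 32, 18 responded more in KO2 and 0 less, against 6.37% and 7.50% of all features. This list too was chosen with earlier results of these data known. NANOG, a homeobox factor that Activin signalling maintains, had 61.3 and 62.2 CPM at day 4, against 21.2 and 23.2 CPM at day 0, with no overlap (log2 fold change 1.48 ± 0.10, adjusted p = 2.23e-08). It rose in WT as well, to 47.8 and 45.2 CPM (difference 0.62 ± 0.14, adjusted p = 0.00861), and the difference was not called without KO2 day 0 replicate 1 (0.54, adjusted p = 0.067). POU5F1, which encodes OCT4, had 513 and 567 CPM at day 4, against 429.5 and 462 CPM at day 0 (log2 fold change 0.28 ± 0.07, adjusted p = 0.00631), and 378 and 389 CPM at day 4 and 459.6 and 437 CPM at day 0 in WT (difference 0.50 ± 0.11, adjusted p = 0.00546). The small rise of POU5F1 within KO2 was not called without KO2 day 0 replicate 1 (0.23, adjusted p = 0.0772) or KO2 day 4 replicate 2 (0.20, adjusted p = 0.0984). NANOG and POU5F1 have processed pseudogenes that may take or lend reads.

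Some pluripotency genes that responded more in KO2 than in WT rose in KO2. TFAP2C, an AP-2 factor of naive cells and germ cells, had 21.7 and 20.5 CPM at day 4, against 4.78 and 4.90 CPM at day 0, with 7.32 and 9.73 CPM at day 4 in WT (difference 1.57 ± 0.31, adjusted p = 0.00377). TFAP2C also rose in WT, by 0.55, and in KO1, by 1.74, and its difference between KO2 and KO1 was not called. KLF4 had 5.54 and 6.83 CPM at day 4, against 1.97 and 2.55 CPM at day 0, with 2.21 and 2.38 CPM at day 4 in WT (difference 1.23 ± 0.34, adjusted p = 0.0271). The KLF4 difference was not called without replicate 2 of KO2 day 4, replicate 1 of KO2 day 0, either WT day 4 library or either WT day 0 library (1.04 to 1.27, adjusted p 0.0608 to 0.132), nor by DESeq2 (1.23, adjusted p = 0.135). PRDM14 rose by 0.43 in KO2 and fell by 0.54 in WT (difference 0.97 ± 0.20, adjusted p = 0.00472), although its rise in KO2 was not called without KO2 day 0 replicate 1 (0.41, adjusted p = 0.0984), KO2 day 0 replicate 2 (0.47, adjusted p = 0.0593) or KO2 day 4 replicate 2 (0.35, adjusted p = 0.131). Other members fell in both lines and less in KO2. DNMT3B, a de novo DNA methyltransferase, had a log2 fold change of −0.37 in KO2 and −1.10 in WT, the telomere-binding TERF1 had −0.46 and −1.21, and TERT, the catalytic part of telomerase, had −0.61 and −1.58. The fall of DNMT3B in KO2 was not called without KO2 day 0 replicate 1 (−0.33, adjusted p = 0.076) or KO2 day 4 replicate 2 (−0.35, adjusted p = 0.0709). DPPA2, CD24 and LCK fell by more than 1, with log2 fold changes of −1.68, −1.62 and −1.42 in KO2. The difference of SOX2 from WT did not pass the threshold (difference 0.53 ± 0.20, adjusted p = 0.0931), and SOX2 in KO2 differed from KO1 (difference 1.40 ± 0.20, adjusted p = 0.000376), where it fell by 1.82.

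**Figure D3:**
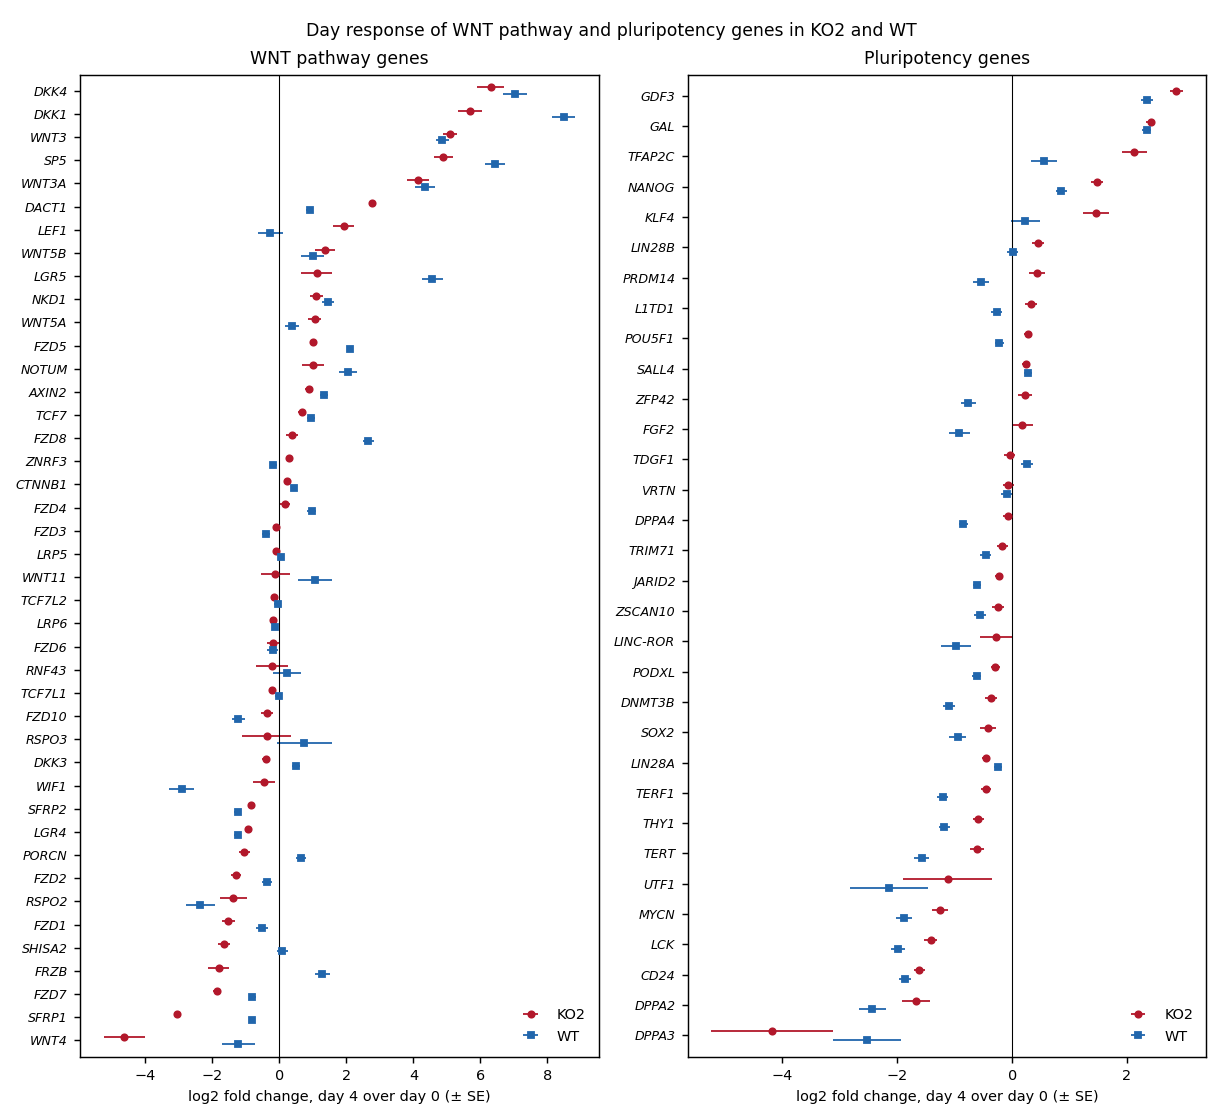
Log2 fold change, day 4 over day 0, with standard errors, for all tested members of the WNT pathway list (left) and the pluripotency list (right) in KO2 (circles) and WT (squares), ordered by the KO2 value. DACT1, LEF1 and TFAP2C lie further right in KO2, while LGR5, FZD8, PORCN and FRZB lie further left.

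The WNT pathway was split. Of 42 tested genes (45 listed), 16 rose, 13 fell and 13 did not pass the test in KO2, against 25.0% higher and 25.7% lower of all features. Against WT, 5 responded more and 13 less, beside 6.37% and 7.50% of all features. Ligand genes WNT3, WNT3A, WNT5A and WNT5B rose by 5.09, 4.14, 1.05 and 1.36. WNT4 fell to 0.241 and 0 CPM at day 4, against 2.44 and 3.43 CPM at day 0, a ratio of 26.7 (day 0 over day 4, exact 95% counting interval 8.71 to 133). Among target genes, LEF1, a transcription factor of the pathway, had 4.65 and 5.82 CPM at day 4, against 1.87 and 0.881 CPM at day 0 in KO2, with no overlap (log2 fold change 1.92 ± 0.30, adjusted p = 0.000104). In WT it had 1.07 and 1.29 CPM at day 4 and 1.65 and 1.27 CPM at day 0 (difference 2.19 ± 0.49, adjusted p = 0.00766). DACT1, a modulator of WNT signalling, had 204 and 223 CPM at day 4, against 29.8 and 32.7 CPM at day 0 in KO2 (log2 fold change 2.77 ± 0.10, adjusted p = 2.27e-11), and 65.3 and 75.1 CPM at day 4 in WT (difference 1.87 ± 0.13, adjusted p = 7.65e-07). LEF1 and DACT1 rose in KO1 too, by 1.39 and 2.41, and neither difference between KO2 and KO1 was called. AXIN2, the common feedback target, rose by 0.87 in KO2 and 1.34 in WT.

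Secreted antagonists moved both ways. SFRP1 had 182 and 163 CPM at day 4, against 1423 and 1471 CPM at day 0 in KO2, without overlap (log2 fold change −3.07 ± 0.09, adjusted p = 4.96e-12), and 651 and 584 CPM at day 4 and 1052 and 1120.2 CPM at day 0 in WT (difference −2.25 ± 0.12, adjusted p = 1.66e-07). FRZB fell to 2.25 and 2.28 CPM at day 4 in KO2, against 8.15 and 7.84 CPM at day 0, while in WT it rose to 20.4 and 14.7 CPM (difference −3.10 ± 0.38, adjusted p = 0.000101). DACT2 fell by 1.62 in KO2 and rose by 1.47 in WT. WIF1 had 3.85 and 3.41 CPM at day 4, against 4.87 and 5.09 CPM at day 0, not past the threshold, and fell by 2.92 in WT (difference 2.46 ± 0.51, adjusted p = 0.00502). DKK1 and DKK4 rose by 5.69 and 6.31, and neither difference from WT passed the threshold (difference −2.79 ± 1.01, adjusted p = 0.0821, and difference −0.73 ± 1.03, adjusted p = 0.695). Receptor genes FZD7, FZD1 and FZD2 fell, with log2 fold changes of −1.86, −1.53 and −1.29, each further than in WT, while FZD5 rose by 1.00, less than in WT (2.11). PORCN, needed to make active WNT ligands, had log2 fold changes of −1.05 in KO2, −1.19 in KO1 and 0.64 in WT.

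BMP pathway genes mostly rose, 16 of 23 tested (26 listed) with 1 lower, against 25.0% and 25.7% of all features. Their median was 0.94 in KO2 and 1.41 in WT. GREM1, a secreted BMP antagonist, had 41.9 and 42.6 CPM at day 4, against 1.59 and 1.47 CPM at day 0 in KO2 and 27.2 and 26.4 CPM at day 4 in WT (difference −0.11 ± 0.44, adjusted p = 0.898). BMP2, a ligand, had 16.9 and 14.7 CPM at day 4, against 4.21 and 5.29 CPM at day 0 in KO2 and 116 and 84.1 CPM at day 4 in WT (difference −3.10 ± 0.32, adjusted p = 1.61e-05). The inhibitory SMAD6 also responded less (difference −1.17). That call was lost without either KO2 day 4 library, replicate 2 of KO2 day 0, replicate 1 of WT day 4 or either WT day 0 library (−1.32 to −0.68, adjusted p 0.0622 to 0.343). ID3, a target gene, was the member that fell (−0.89). Of 27 tested FGF pathway genes (28 listed), 10 rose and 10 fell in KO2, against 25.0% and 25.7% of all features. Against WT, 4 responded more and 8 less, beside 6.37% and 7.50% of all features. The feedback phosphatase gene DUSP4 had 22.1 and 21.3 CPM at day 4, against 31.8 and 35.5 CPM at day 0 in KO2 (log2 fold change −0.63 ± 0.12, adjusted p = 0.000474), and rose by 1.25 in WT (difference −1.88 ± 0.16, adjusted p = 5.31e-06). ETV5 fell by 0.71, while the feedback inhibitor SPRY1 rose by 0.81 and responded more than in WT (difference 0.75). FGF receptor genes FGFR2 and FGFR4 fell, with log2 fold changes of −1.01 and −1.27 in KO2 and −0.91 and −1.55 in WT.

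Of 19 tested Notch genes (20 listed), 4 were higher and 10 lower in KO2, against 25.0% and 25.7% of all features. Against WT, 2 responded more and 1 less, near the 6.37% and 7.50% of all features. The ligand gene DLL1 and the glycosyltransferase genes LFNG and MFNG fell, with log2 fold changes of −3.40, −2.24 and −2.51, HES5 fell to 0.0802 and 0 CPM, against 1.50 and 1.76 CPM at day 0, a ratio of 44.6 (day 0 over day 4, exact 95% counting interval 7.48 to 1813), and the effector HEY1 rose by 1.93. Of 14 tested retinoic acid and HOX genes (23 listed), 3 rose, 7 fell and 4 responded less than in WT, against 25.0%, 25.7% and 7.50% of all features. CYP26A1, which degrades retinoic acid, had 95.7 and 76.2 CPM at day 4, against 8.80 and 7.74 CPM at day 0 in KO2, and 644 and 558 CPM at day 4 in WT (difference −3.37 ± 0.21, adjusted p = 2.67e-07). DHRS3, RARG and CRABP2 fell, with log2 fold changes of −2.20, −1.14 and −1.14.

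Lists of other lineages are read against 25.0% of all features higher and 25.7% lower in KO2. In neuroectoderm, 29 of 37 genes were tested, and 2 rose (NES by 1.58 and SIX3 by 1.34) and 18 fell. NPTX1, which encodes a neuronal pentraxin, had 1.12 and 0.870 CPM at day 4, against 62.3 and 58.0 CPM at day 0, without overlap (log2 fold change −5.92 ± 0.46, adjusted p = 8.41e-08), and HES3, POU3F1 and FEZF1 fell, with log2 fold changes of −4.50, −2.35 and −3.88. The rise of SIX3 was not called without KO2 day 0 replicate 1 (1.09, adjusted p = 0.206), KO2 day 4 replicate 1 (0.89, adjusted p = 0.262) and in 6 other alternative fits. LHX5 had 0.963 and 0.803 CPM at day 4, against 0.749 and 1.08 CPM at day 0 in KO2 with overlap, and rose in WT (difference −3.35 ± 0.53, adjusted p = 0.000727). In mesoderm, 20 of 30 genes were tested, 5 rose and 5 fell, as over all features, and 1 responded less than in WT. WT1 rose to 3.05 and 2.81 CPM at day 4, against 0.0937 and 0.0979 CPM at day 0, a ratio of 30.5 (day 4 over day 0, exact 95% counting interval 8.17 to 256), and TCF15, LMO2, KDR, PDGFRB and TBX6 fell. Of 11 neural crest genes tested (14 listed), 2 rose, MSX1 and ETS1 (3.47 and 0.83), and 2 fell, SOX9 and NGFR (−2.27 and −2.10). MSX1 had 17 counts over both day 4 libraries and 1 over both day 0 libraries, so the size of its rise is uncertain. Of 10 trophectoderm and amnion genes tested (17 listed), 3 rose (GATA3, GATA2 and HEY1) and 3 fell (KRT7, GABRP and TP63), with GATA3 at 2.17 and 2.28 CPM at day 4. Of 11 primordial germ cell genes tested (12 listed), 4 rose (SOX17, PRDM1, TFAP2C and KIT) and 3 fell (DPPA3, DAZL and SOX15). Of 10 endothelial and blood genes tested (16 listed), 2 rose (ESAM and FLT1) and 3 fell (ERG, KDR and TEK), and ERG fell by 3.03. In the last 3 lists, 5 calls rested on single libraries. KIT was not called without KO2 day 0 replicate 2 (0.36, adjusted p = 0.0577) or without KO2 day 4 replicate 1 (0.30, adjusted p = 0.0841). TP63 was not called without KO2 day 0 replicate 1 (−1.94, adjusted p = 0.0729) or without KO2 day 4 replicate 2 (−2.00, adjusted p = 0.065). SOX15 was not called without KO2 day 0 replicate 2 (−0.51, adjusted p = 0.147) or without KO2 day 4 replicate 2 (−0.43, adjusted p = 0.197). ESAM was not called without KO2 day 0 replicate 2 (1.44, adjusted p = 0.0805). TEK was not called without KO2 day 0 replicate 1 (−0.46, adjusted p = 0.127) or without KO2 day 4 replicate 2 (−0.42, adjusted p = 0.154).

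**Figure D4:**
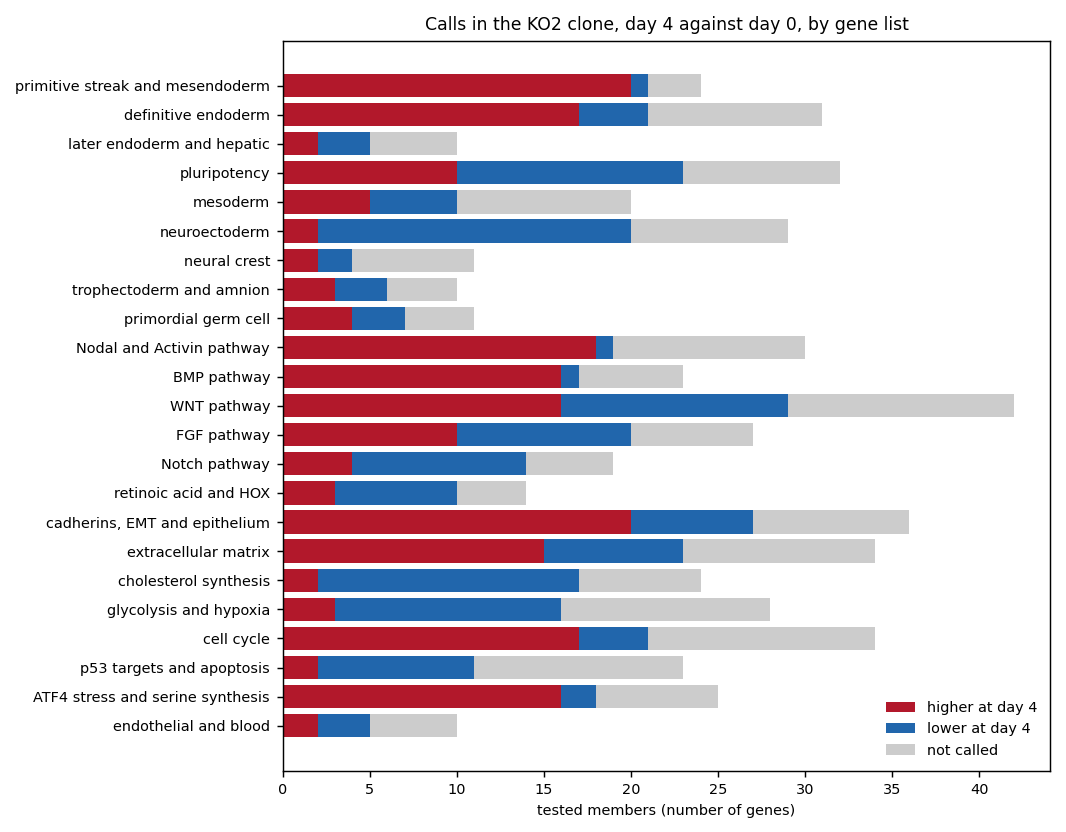
Number of tested genes in each of 23 lists that were higher at day 4, lower at day 4 or not called in the KO2 clone (edgeR, adjusted p under 0.05). Streak genes were higher in 20 of 24 cases and definitive endoderm genes in 17 of 31, while 18 of 29 neuroectoderm genes were lower. Over all features, 25.0% were higher and 25.7% lower.

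Median log2 fold changes in KO2 over the tested members, against −0.0027 over all features, were 0.0005 for later endoderm, 0.39 for mesoderm, −0.70 for neuroectoderm, 0.17 for neural crest, 0.76 for trophectoderm, 0.28 for germ cell and −0.30 for endothelial and blood genes. They were −0.11 for WNT, −0.03 for FGF, −0.33 for Notch and −0.36 for retinoic acid genes. Among the lists described next they were 0.32 for adhesion, 0.31 for matrix, −0.14 for p53, 0.68 for ATF4 and −0.22 for glycolysis genes.

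The genes with the largest fall in KO2 and at least 5 CPM at day 0 also fell in WT. IDO1, which degrades tryptophan, had 2.33 and 2.68 CPM at day 4, against 116 and 126 CPM at day 0, without overlap (log2 fold change −5.58 ± 0.13, adjusted p = 4.88e-13), and fell by 5.33 in WT. LDHD, a D-lactate dehydrogenase gene, had 0.160 and 0.0669 CPM at day 4, against 8.80 and 10.6 CPM at day 0, a ratio of 88.3 (day 0 over day 4, exact 95% counting interval 29.8 to 432). SIT1, an adaptor of lymphocyte receptors, had a ratio of 49.4 (day 0 over day 4, exact 95% counting interval 16.5 to 243). BTBD17, the serotonin receptor gene HTR1D, PHYHIP and HHLA1 had log2 fold changes of −6.05, −5.37, −5.02 and −4.92, and CCDC141, SEZ6, PLA2G4C, the germ cell gene DAZL and PAPLN had −4.43, −4.35, −4.33, −4.24 and −4.23. HTR1D and CCDC141 fell further than in WT (differences −1.71 and −2.00). The HTR1D difference was not called without either KO2 day 4 library, either KO2 day 0 library, either WT day 4 library or either WT day 0 library (−1.96 to −1.38, adjusted p 0.0604 to 0.231). That of CCDC141 was not called without replicate 2 of KO2 day 4 (−1.55, adjusted p = 0.121). SPATA16 fell to 0 and 0.134 CPM at day 4, against 7.40 and 5.68 CPM at day 0, a ratio of 89.9 (day 0 over day 4, exact 95% counting interval 24.4 to 749.5), and in WT it had 0.763 and 0.838 CPM at day 4 (difference −4.20 ± 0.81, adjusted p = 0.00294). Among features with only an assembly ID, 59 rose and 239 fell of 763 named as SCRIPTURE models, and 19 rose and 71 fell of 225 named as 48HRS models. Over all features 25.0% rose and 25.7% fell.

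Adhesion genes changed in part. Of 36 tested genes for cadherins, epithelium and the mesenchymal transition, 20 rose and 7 fell in KO2, against 25.0% and 25.7% of all features. Against WT, 7 responded more and 7 less, beside 6.37% and 7.50% of all features. CDH1, the epithelial cadherin, had 495 and 508 CPM at day 4, against 537 and 549 CPM at day 0, not past the threshold (log2 fold change −0.12 ± 0.08, adjusted p = 0.229), and fell in WT (−0.55). Its response in KO2 lay above that in WT (difference 0.43 ± 0.11, adjusted p = 0.0157). The CDH1 call was lost without either KO2 day 4 library, either KO2 day 0 library, replicate 1 of WT day 4 or replicate 2 of WT day 0 (0.38 to 0.44, adjusted p 0.0521 to 0.0893). CDH2, the neural cadherin, had 408 and 388 CPM at day 4, against 74.4 and 70.0 CPM at day 0 in KO2, and 842 and 773 CPM at day 4 in WT (difference −1.03 ± 0.12, adjusted p = 5.61e-05). CDH6, CDH11 and CD44 rose by 2.31, 1.58 and 1.19, more than in WT (1.35, 0.74 and 0.05). In KO1 they rose by 1.63, 2.32 and 2.24, and CDH11 and CD44 responded less in KO2 than in KO1. The fibronectin receptor gene ITGA5 rose by 0.89, less than in WT (2.25), and the tight junction genes CLDN3 and CLDN4 fell, with log2 fold changes of −1.50 and −1.97.

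Of 34 tested extracellular matrix genes (35 listed), 15 rose and 8 fell in KO2, against 25.0% and 25.7% of all features. Against WT, 4 responded more and 11 less, beside 6.37% and 7.50% of all features. TNC, which encodes tenascin C, had 156 and 123 CPM at day 4, against 18.4 and 18.4 CPM at day 0 in KO2, and 739 and 582 CPM at day 4 in WT (difference −2.43 ± 0.21, adjusted p = 4.56e-06). COL5A2 and HAS2 rose by 2.77 and 4.42, less than in WT (3.97 and 6.22). VCAN, a large proteoglycan of the matrix, had 1183 and 1229 CPM at day 4, against 648 and 688 CPM at day 0 in KO2, without overlap (log2 fold change 0.85 ± 0.10, adjusted p = 3.79e-06), while in WT it fell to 428 and 522 CPM, against 673 and 786 CPM at day 0 (difference 1.47 ± 0.14, adjusted p = 6.79e-06). POSTN and COL12A1 also responded more in KO2 (differences 1.60 and 1.18). Those calls were lost for POSTN without either KO2 day 4 library, either KO2 day 0 library, replicate 1 of WT day 4 or either WT day 0 library (1.36 to 1.66, adjusted p 0.0507 to 0.118). For COL12A1 the call was lost without either KO2 day 4 library, either KO2 day 0 library or either WT day 0 library (1.09 to 1.25, adjusted p 0.0526 to 0.125). COL4A2 and COL4A6, basement membrane collagens, fell in KO2 (−0.46 and −0.38) and rose in WT (0.63 and 1.04). In KO1, COL4A2 fell (−0.33) and COL4A6 did not pass the test (−0.24), and neither difference between KO2 and KO1 was called. The fall of COL4A6 within KO2 was not called without KO2 day 0 replicate 2 (−0.30, adjusted p = 0.11) or KO2 day 4 replicate 2 (−0.24, adjusted p = 0.166).

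VCAN belonged to a set of 84 symbols that were called in opposite directions in KO2 and WT, with KO2 higher, the difference called and a mean of at least 5 CPM in a group, and 134 symbols showed the reverse. Only gene symbols at that level in a KO2 or WT group could enter, which are fewer than the 16792 features tested. In the first set, CPNE7 had 14.0 and 14.9 CPM at day 4, against 7.96 and 6.56 CPM at day 0 in KO2, and 4.50 and 4.90 CPM at day 4 and 8.91 and 8.34 CPM at day 0 in WT (difference 1.86 ± 0.26, adjusted p = 0.000278). THBS2, a thrombospondin of the matrix, had 85.4 and 89.8 CPM at day 4, against 65.5 and 54.1 CPM at day 0 in KO2 and fell by 1.18 in WT, although its rise in KO2 was not called without KO2 day 0 replicate 2 (0.43, adjusted p = 0.0668). In the second set, KEL had 0.722 and 0.602 CPM at day 4, against 2.53 and 2.15 CPM at day 0 in KO2, and 7.93 and 7.93 CPM at day 4 in WT (difference −4.06 ± 0.40, adjusted p = 1.28e-05). FAM184A had 10.4 and 10.8 CPM at day 4, against 17.8 and 21.9 CPM at day 0 in KO2, and 104 and 92.9 CPM at day 4 and 16.3 and 20.0 CPM at day 0 in WT (difference −3.32 ± 0.23, adjusted p = 6.24e-07). COL23A1 had 2.65 and 2.14 CPM at day 4, against 12.5 and 15.1 CPM at day 0 in KO2, and 19.2 and 20.8 CPM at day 4 in WT (difference −2.95 ± 0.25, adjusted p = 4.31e-06). PDE4D, a cyclic AMP phosphodiesterase gene that overlaps PART1, rose by 2.26 in KO2, against 0.44 in WT, which did not pass the test (difference 1.83 ± 0.30, adjusted p = 0.00102).

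Of 34 tested cell cycle genes (35 listed), 17 rose and 4 fell in KO2, with a median of 0.24, and 8 responded more than in WT and 3 less. For the lists of this paragraph, the shares of all features were 25.0% higher and 25.7% lower in KO2. Against WT they were 6.37% more and 7.50% less. CCND1, a G1 cyclin gene, had 376 and 386 CPM at day 4, against 136 and 124 CPM at day 0 in KO2, with no overlap (log2 fold change 1.55 ± 0.09, adjusted p = 3.06e-09), and 168 and 181 CPM at day 4 in WT (difference 1.35 ± 0.12, adjusted p = 6.65e-06). CDC6 and CDC25A rose by 0.80 and 0.74, more than in WT (differences 0.67 and 0.67). Among 23 tested p53 targets and apoptosis genes (24 listed), 2 rose and 9 fell, and 6 responded less than in WT and 1 more. GDF15 fell to 0.160 and 0.268 CPM at day 4, against 1.40 and 1.57 CPM at day 0, and had 2.98 and 4.19 CPM at day 4 in WT (difference −2.85 ± 0.54, adjusted p = 0.0028). BMF and FAS, which promote cell death, fell, with log2 fold changes of −1.52 and −1.50. Among 25 tested ATF4 stress and serine synthesis genes, 16 rose and 2 fell, and 1 responded more than in WT (PSAT1, difference 0.60) and 0 less. DDIT3, ATF5 and SLC7A5 rose by 2.01, 1.80 and 1.46.

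Of 28 tested glycolysis and hypoxia genes (29 listed), 3 rose and 13 fell in KO2, against 25.0% and 25.7% of all features. Against WT, 3 responded more and 6 less, beside 6.37% and 7.50% of all features. PDK1, a kinase that inhibits pyruvate dehydrogenase, had 152 and 157 CPM at day 4, against 58.3 and 49.3 CPM at day 0 (log2 fold change 1.52 ± 0.13, adjusted p = 1.52e-07), and BNIP3 fell by 1.04 in KO2 and rose by 1.17 in WT. SLC16A3, a lactate exporter gene, fell by 2.28, and 0.13 in WT did not pass the test. Of 24 tested cholesterol synthesis genes (25 listed), 2 rose and 15 fell in KO2, against the same 25.0% and 25.7% of all features. Their median was −0.41 in KO2, 0.96 in KO1 and −0.50 in WT. INSIG1, which restrains sterol synthesis, had 30.6 and 41.9 CPM at day 4, against 119 and 137 CPM at day 0 in KO2 and fell by 1.72 in WT. Against KO1, where 22 of the 24 rose, 21 responded less in KO2 and 1 more, beside 6.52% and 3.92% of all features. Against WT, 0 responded less and 1 more.

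The clones labelled as knockouts of the same gene differed in their day response. Relative to KO1, the largest differences with at least 5 CPM in a group and KO2 lower were in CD48, SPATA16, LINC00261, APLNR and CD177. CD48 had 2.73 and 2.28 CPM at day 4, against 0 and 0.196 CPM at day 0 in KO2, and a fitted difference from KO1 of −7.92, which depends on the prior count because KO1 day 0 had 0 counts. This call was lost without KO2 day 0 replicate 2 (−4.37, adjusted p = 1), KO1 day 4 replicate 1 (−8.00, adjusted p = 0.0559) or KO2 day 4 replicate 2 (−7.78, adjusted p = 0.0581). APLNR, the apelin receptor of streak-derived mesoderm and endoderm, had 1.44 and 1.74 CPM at day 4, against 0.937 and 0.979 CPM at day 0 in KO2, not past the threshold, and rose by 6.13 in KO1 (difference −5.40 ± 0.56, adjusted p = 2.18e-05). CXCR4 responded less in KO2 than in KO1 too (difference −3.52 ± 0.37, adjusted p = 2.42e-05), as did FOXA2 (difference −2.50 ± 0.34, adjusted p = 0.000257), while the differences of HHEX and GSC did not pass the threshold (difference −0.82 ± 0.60, adjusted p = 0.455, and difference −1.55 ± 0.69, adjusted p = 0.188). In the other direction, TTYH1 and KCNN2 fell less in KO2 than in KO1 (difference 2.72 ± 0.40, adjusted p = 0.000438, and difference 2.02 ± 0.23, adjusted p = 4.66e-05), although the fall of KCNN2 within KO2 was not called without KO2 day 0 replicate 2 (−0.43, adjusted p = 0.0815) or KO2 day 4 replicate 2 (−0.47, adjusted p = 0.0687). The differences from WT and from KO1 share the KO2 libraries.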

How the data were processed

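RNA-seq was made from poly(A) RNA with a stranded kit, 12 libraries in 6 groups (WT, KO1 and KO2 at day 0 and day 4, 2 each). The 8 ChIP-seq samples of the series were not analysed here. The deposited values are raw read counts per feature, made by the authors with Bowtie2 2.1.0 and HTSeq 0.6.1 on hg19, per the submitters' processing notes. Neither the annotation nor the strand setting is given in the sources used here. The summary rows of each table, among them 29.2% to 30.5% of reads in no feature, were dropped.

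From the counts, 16792 of 54435 listed features passed filterByExpr. One edgeR 4.0.16 quasi-likelihood model (R 4.3.3) was fitted to all 12 libraries with 6 groups, TMM factors and no replicate block, which left 6 residual degrees of freedom. It gave the change within KO2 and its differences from the changes in WT and in KO1, with Benjamini-Hochberg adjustment over all features and a threshold of 0.05. Standard errors were taken from the F statistic, and CPM used TMM-scaled library sizes. For a group with 0 counts, folds were bounded with 3 counts summed over both libraries, and ratios with 1 to 3 counts have an exact 95% interval. Intervals and floors cover counting error only. Replicate numbers were not taken to pair the libraries, since correlations of same-numbered deviations ran from −0.073 to 0.234 and were not all over 0.1, although the 3 between day 0 groups were (0.12 to 0.234).

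Named genes were a lineage panel, the 15 largest changes each way at 5 CPM or more, leading members of 23 gene lists, the 10 largest differences from WT and from KO1 each way, and the 10 largest opposite changes each way. Other list members are given beside the count of their list, and a gene that the rule names is not reported here. Members and lists were chosen with earlier results of these data known. On simulated counts of 16622 features, 200 of them changed, the fit recovered 71% of 2-fold and 90% of 4-fold changes within KO2, with 4.17% false among calls. For the difference from WT, on 16562 features, it recovered 66% and 88%, with 7.23% false among calls, and for that from KO1, on 16506 features, 68% and 88%, with 6.59% false. The simulation gave each feature the same spread in all groups and set the compared groups to the mean level of the 6 groups. The data held far more changed features, many with low day 0 levels, and an uneven KO1 day 0 pair. The rates in the data may therefore differ. Alternatives were other scalings and filters, DESeq2 1.42.0, a replicate block, a prior count of 2, subsets of the lines, and leaving out each library. Promoters and gene overlaps came from RefSeq on GRCh38.p14, and 15413 of 16792 features matched a RefSeq symbol or synonym.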

Additional observations from a re-analysis of the deposited data

Results flagged for a closer look

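The day response of KO2 differed from that of WT for 1070 features that were higher in KO2 and 1259 that were lower, and from that of KO1 for 659 higher and 1095 lower, by the edgeR test of the difference itself. The values that follow are log2 differences of the day 4 over day 0 response, each past an adjusted p of 0.05.

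Among lineage genes, KO2 minus WT was −2.49 for EOMES, −4.25 for GSC, −3.38 for CER1, −3.53 for SOX17, −2.77 for FOXA2, −3.24 for GATA4, −5.07 for GATA6, −2.97 for HHEX, −4.79 for CXCR4 and −1.03 for CDH2. It was 1.00 for NODAL, 0.50 for POU5F1, 0.62 for NANOG and 0.43 for CDH1. Without KO2 day 0 replicate 1 the values were −1.78, adjusted p = 0.0566 for CER1, −1.92, adjusted p = 0.402 for SOX17 and −3.87, adjusted p = 0.306 for GATA6.

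Among symbols with a mean of at least 5 CPM in a group, the 10 largest differences from WT with KO2 lower were −5.16 for PLCE1, −5.07 for GATA6, −5.06 for ANKRD1, −4.95 for VWF, −4.84 for ARHGAP24, −4.79 for CXCR4, −4.52 for CCKBR, −4.30 for CXCR7, −4.25 for GSC and −4.21 for LINC00261. Without KO2 day 0 replicate 1 the calls for GATA6 and GSC were lost (−3.87, adjusted p = 0.306 for GATA6, and −4.08, adjusted p = 0.0777 for GSC). The call for ANKRD1 was lost without WT day 0 replicate 2 (−4.86, adjusted p = 0.055) or KO2 day 0 replicate 1 (−4.55, adjusted p = 0.161), and that for LINC00261 without KO2 day 0 replicate 1 (−3.31, adjusted p = 0.348). With KO2 higher they were 7.53 for CSH2, 2.46 for WIF1, 2.31 for PCSK1, 2.24 for KCNG3, 2.19 for LEF1, 1.88 for PNPLA5, 1.87 for DACT1, 1.86 for CPNE7, 1.83 for PDE4D and 1.82 for CR2. The CSH2 value rests on 0 counts in KO2 at day 0, depends on the prior count and is no bound, and without WT day 0 replicate 2 it was 4.18, adjusted p = 1. PLCE1 overlaps NOC3L, PCSK1 overlaps CAST and PDE4D overlaps PART1.

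Genes called in opposite directions in KO2 and WT, with KO2 higher, differed by 1.73 for THBS2, 1.47 for VCAN, 1.38 for CACNG4, 1.35 for PCSK5, 1.17 for SLC6A15, 1.06 for POLR1B, 1.05 for CALN1, 1.05 for RFTN1 and 1.02 for ACTC1. The calls within KO2, on which the opposite direction rests, were lost for THBS2 without replicate 2 of KO2 day 0 (0.43, adjusted p = 0.0668), for CACNG4 without replicate 2 of KO2 day 4 or replicate 1 of KO2 day 0 (0.52 to 0.61, adjusted p 0.0754 to 0.102) and for PCSK5 without replicate 2 of KO2 day 4 (0.43, adjusted p = 0.0704). For CALN1 the call within KO2 was lost without either KO2 day 4 library or either KO2 day 0 library (0.33 to 0.36, adjusted p 0.066 to 0.0945) and with total counts (0.26, adjusted p = 0.0606). For ACTC1 it was lost without either KO2 day 4 library, replicate 2 of KO2 day 0, replicate 2 of KO1 day 4 or either WT day 4 library (0.33 to 0.52, adjusted p 0.0506 to 0.253), with upper-quartile factors (0.40, adjusted p = 0.0655), with total counts (0.39, adjusted p = 0.07) and with DESeq2 (0.47, adjusted p = 0.109). The difference of ACTC1 from WT was lost without replicate 1 of WT day 0 (0.85, adjusted p = 0.0709), of WT day 4 (0.95, adjusted p = 0.0718), or replicate 2 of KO2 day 0 (0.87, adjusted p = 0.0784) or of KO2 day 4 (0.97, adjusted p = 0.0585). With KO2 lower, they differed by −4.06 for KEL, −3.32 for FAM184A, −3.22 for SHISA3, −3.10 for FRZB, −3.09 for DACT2, −3.05 for KIAA1462, −2.95 for COL23A1, −2.86 for CD177, −2.59 for PPFIBP2 and −2.54 for APOBEC3G. The calls within KO2 were lost for SHISA3 without replicate 2 of KO2 day 4 or replicate 2 of KO2 day 0 (−1.20 to −1.14, adjusted p 0.0977 to 0.112), and for APOBEC3G without replicate 2 of KO2 day 4 or replicate 2 of KO2 day 0 (−0.80 to −0.78, adjusted p 0.0726 to 0.0791). RFTN1 overlaps OXNAD1 and PPFIBP2 overlaps CYB5R2.

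KO2 minus KO1 was 6.85 for CSH2, 2.72 for TTYH1, 2.57 for MT1G, 2.57 for GPR160, 2.48 for CR2, 2.11 for CPNE7, 2.04 for SNAI3, 2.02 for KCNN2, 1.98 for ABCA1 and 1.97 for MACROD1. It was −7.92 for CD48, −6.07 for SPATA16, −5.56 for LINC00261, −5.40 for APLNR, −4.07 for CD177, −4.04 for LHX5, −3.95 for LHX1, −3.93 for FGF17, −3.81 for SMPD3 and −3.75 for LIX1. Without KO2 day 0 replicate 1 the calls were lost for FGF17 (−2.06, adjusted p = 0.634), LINC00261 (−4.66, adjusted p = 0.236) and LIX1 (−3.26, adjusted p = 0.0627). The call for MACROD1 was lost without either KO2 day 4 library, either KO2 day 0 library or either KO1 day 4 library (1.84 to 2.08, adjusted p 0.0514 to 0.114), and with KO2 and KO1 libraries alone (1.96, adjusted p = 0.071). That for CSH2 was lost without either KO2 day 0 library or replicate 2 of KO1 day 0 (6.16 to 6.87, adjusted p 0.0661 to 0.0728). The values of CSH2 and CD48 rest on groups with 0 counts and depend on the prior count. The call for CD48 was lost without replicate 2 of KO2 day 4, replicate 2 of KO2 day 0 or replicate 1 of KO1 day 4 (−8.00 to −4.37, adjusted p 0.0559 to 1). SNAI3, ABCA1, MACROD1 and SMPD3 overlap SNAI3-AS1, NIPSNAP3B, FLRT1 and PRMT7.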

How the results depend on the processing

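Counts of features changed within KO2 stayed within 1.5 times under every alternative run. Leaving out each of the 12 libraries gave 3025 to 4972 higher and 3328 to 4908 lower, or 770 to 885 and 1676 to 2000 by at least 1. For KO2 against WT it gave 447 to 2117 higher and 737 to 2128 lower, or 107 to 226 and 446 to 754 by at least 1. For KO2 against KO1 it gave 268 to 1694 higher and 625 to 2036 lower, or 109 to 366 and 414 to 703 by at least 1. The fit on KO2 and WT libraries alone called 2127 higher and 1971 lower against WT; the cause was not tested.

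Of 262 named genes called within KO2, 209 were called under all 22 alternatives. Of 79 called against WT, 55 were called under all 21, and of 32 called against KO1, 20 were. No called gene changed direction. Some uncalled values changed sign. VWF within KO2 was 0.0059 with no filter on low counts, SMAD4 was −0.034 with upper-quartile factors and −0.051 with total counts, and leaving out libraries gave −0.47 to 0.39 for VWF, −0.070 to 1.06 for ARHGAP24, −0.29 to 0.23 for LHX5, −0.014 to 0.072 for SMAD4 and −0.080 to 0.002 for TDGF1 within KO2, −1.19 to 0.26 for T, −1.52 to 0.19 for DKK4 and −1.32 to 0.38 for GREM1 against WT, and −1.31 to 0.14 for T and −0.18 to 0.059 for NODAL against KO1. The replicate block called 8809 features within KO2, 2651 against WT and 1986 against KO1, and the numbers were not taken to pair the libraries. DESeq2 called 7360, 1925 and 1482. Total counts gave 40.6% higher among calls within KO2, against 49.3% with TMM, and a median over all features of −0.078, against −0.0027. Depth limits low genes, since 3 counts correspond to 0.134 to 0.294 CPM per library.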
